A study of Mus musculus with 8 samples.

Results

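Foxp1, Foxp2 and Foxp4 are forkhead genes with Pax6 binding sites in alphaTC1 cells, and all sites that the authors' annotated table assigns to these 3 symbols are described here. They numbered 40 of the 26244 sites in that table: 29 at Foxp1, 4 at Foxp2 and 7 at Foxp4. The sites come from Pax6 chromatin immunoprecipitation with sequencing (ChIP-seq) of alphaTC1, a mouse glucagon-producing line from an islet tumour driven by a viral T antigen under the glucagon promoter. Antisense oligonucleotides carried a scrambled sequence in 1 group (control knockdown, control KD) and targeted Paupar, a long non-coding RNA from the Pax6 locus, in the other (Paupar KD). Each group had 2 Pax6 ChIP libraries, described in the series as duplicate biological samples, and 2 input libraries that were not analysed here. No genotype, passage, dose or time is given in the labels used here, and both groups share the same line, antibody and kit. The question was how Pax6 binding along these genes stood in control cells and whether it differed after Paupar KD.

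Foxp proteins are transcription factors with a zinc finger, a leucine zipper through which family members pair, and a forkhead domain that binds DNA, and they act mostly as repressors. In mice, combined loss of Foxp1, Foxp2 and Foxp4 from the endocrine pancreas is known to reduce alpha-cell proliferation and glucagon secretion. Pax6 is a paired-domain and homeodomain factor needed for islet endocrine cells, and it binds the glucagon gene. RNA was not measured by this assay, so neither Foxp expression nor the alpha-cell label could be checked by marker levels.

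RefSeq promoter windows of Foxp1 and Foxp4 are shown for their base composition and position, each with 250 bases before and 50 bases after an annotated start. A further Foxp1 window is named below but not shown, and no window was available for Foxp2. Capitals mark the 50 transcribed bases (GRCm38.p6, minus strand, RefSeq).
Foxp1 first window, chr6:99520944-99521243: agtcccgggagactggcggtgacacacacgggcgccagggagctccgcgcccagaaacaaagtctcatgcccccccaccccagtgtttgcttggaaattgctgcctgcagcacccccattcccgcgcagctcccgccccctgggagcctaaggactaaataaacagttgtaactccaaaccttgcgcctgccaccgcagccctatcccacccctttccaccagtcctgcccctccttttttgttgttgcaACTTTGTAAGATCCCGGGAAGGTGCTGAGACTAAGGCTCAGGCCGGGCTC
Foxp1 second window, chr6:99266466-99266765: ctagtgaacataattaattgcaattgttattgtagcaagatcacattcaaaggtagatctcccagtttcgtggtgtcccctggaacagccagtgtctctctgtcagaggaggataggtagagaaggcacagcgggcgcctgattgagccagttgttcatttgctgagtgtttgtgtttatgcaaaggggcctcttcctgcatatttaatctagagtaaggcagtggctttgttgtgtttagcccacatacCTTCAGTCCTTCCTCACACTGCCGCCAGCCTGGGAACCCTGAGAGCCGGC
Foxp4 start, chr17:47924583-47924882: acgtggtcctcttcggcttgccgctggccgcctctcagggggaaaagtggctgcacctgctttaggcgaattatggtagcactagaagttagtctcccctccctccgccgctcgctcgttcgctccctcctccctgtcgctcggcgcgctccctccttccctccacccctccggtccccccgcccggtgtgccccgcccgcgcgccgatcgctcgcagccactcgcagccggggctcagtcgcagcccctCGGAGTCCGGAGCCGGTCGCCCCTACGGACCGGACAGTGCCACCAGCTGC

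Of these windows the first Foxp1 one had 60.3% G and C, the second 48.7% and the Foxp4 one 70.3%. The start in the first Foxp1 window lies 1.75 kb inside the RefSeq gene span, whose edge is used for the distances along the gene here, and that of the Foxp4 window is the edge of its gene. The nearest Pax6 site lay 864 bp upstream of the first Foxp1 window, 9416 bp upstream of the second one and 131 bp upstream of the Foxp4 one, and no summit of any of the 4 libraries fell inside a window. The paired-domain core letters TTCACGC and TTCANGC and the paired homeodomain motif known as P3, searched on both strands, had 0 matches in these windows and in the further Foxp1 window at chr6:99028249-99028548. TTCACGC is contained in TTCANGC. Over all 32851 RefSeq promoter windows of the same length, 1.26% held TTCACGC, 10.8% held TTCANGC and 0.487% held P3. The letters of the Pax6 sites themselves were not read here.

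Foxp1 had one of the denser sets of Pax6 sites of any long gene, and Foxp2, of similar length, had few. Foxp1 lies on the minus strand of chromosome 6 (98925342 to 99522746, mm10, 597.4 kb), Foxp2 on the plus strand (14901349 to 15441977, 540.6 kb) and Foxp4 on the minus strand of chromosome 17 (47867133 to 47924632, 57.5 kb). Of 10198 genes with a site, 21 had at least the 29 sites of Foxp1, itself included. Inside the gene spans lay 24 sites for Foxp1, 3 for Foxp2 and 4 for Foxp4, which is 4.02, 0.55 and 6.96 sites per 100 kb. Among the 215 genes of 400 kb or more with an assigned site, the median was 0.70 sites per 100 kb; 10 of them were denser than Foxp1 and 86 sparser than Foxp2. The Foxp1 sites stretched over 905.4 kb, from introns of the upstream neighbour Eif4e3 to intergenic sequence beyond the gene's end, with a median gap of 19.2 kb.

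By the authors' annotation, 21 Foxp1 sites were in introns (19 of them its own and 2 in Eif4e3), 5 in promoters, 1 in an exon and 2 in distal intergenic sequence. Foxp2 had 3 promoter sites and 1 exon site, and Foxp4 had 3 promoter, 2 intron and 2 distal intergenic sites. The promoter class counts the start of any annotated transcript, so 3 of the 5 Foxp1 promoter sites lay over 400 kb inside the gene.

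At a false discovery rate (FDR) below 0.05 by the authors' deposited table, 5 Foxp sites were higher and 1 was lower after Paupar KD, 16.2% of the 37 inside the authors' adjustment. Over all 25234 adjusted sites 4.27% were called, 3.39% higher and 0.88% lower. Foxp1 held 4 of the higher sites and the lower one, Foxp2 held the fifth higher site, and Foxp4 held none. All 4 higher Foxp1 sites were in its introns, where 17 sites were adjusted; over all adjusted intron sites 4.0% were higher. Only 3 genes of the table had 4 higher sites and none had more, the others being Ccdc190, with 8 sites in 6.7 kb, and Slc24a2, with 14 sites. Of the 6 called Foxp sites, 3 had their only summit in Paupar KD replicate 1 and 1 in Paupar KD replicate 2, so the calls that had summits in at least 2 libraries numbered 2.

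**Figure D1:**
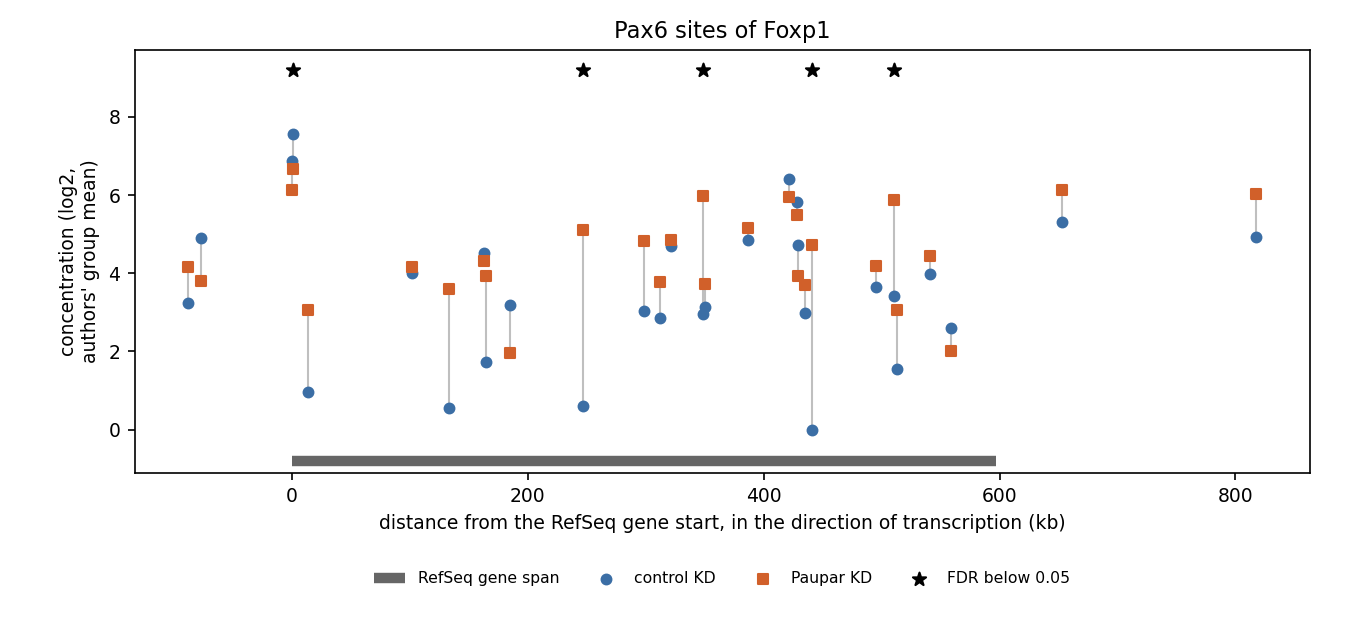
Pax6 concentration (log2, the authors' group mean, y axis) at the 29 Foxp1 sites against distance from the RefSeq gene start in the direction of transcription (kb, x axis), with control KD as circles, Paupar KD as squares and a line joining the 2 values of a site. Stars mark the 5 sites with an FDR below 0.05: the 4 between 246.5 and 510.5 kb have the square above the circle, and the one at 0.6 kb has the square below.

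The 2 called Foxp1 sites with the smallest FDRs also had summits in both groups. The site in intron 2 of 17 (chromosome 6, 99173864 to 99173963), 348.8 kb into the gene, rose from a concentration, that is the log2 of the normalised reads in the site, of 2.96 to one of 5.97 after Paupar KD by the authors' deposited table. For this site the authors' deposited table gave a log2 change of 3.01 and an FDR of 0.000196. Summits scored 2.97 in control KD replicate 1, 55.3 in Paupar KD replicate 1 and 19.0 in Paupar KD replicate 2, and control KD replicate 2 had none; the score is the authors' own, and it is read here as −log10 of a q-value. Scores were ranked within 1 library's list, since their scale need not be shared between lists. The control KD summit stood at the 3.0 percentile of its own list and the Paupar KD ones at the 94.1 and 75.9 percentiles of theirs.

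The site in intron 6 of 17 (99012189 to 99012288), 510.5 kb into the gene, rose from 3.41 to 5.86 by 2.45 on the log2 scale; the authors' deposited table gave an FDR of 0.00135. It was the 1 called Foxp site with a summit within 250 bp in all 4 libraries, with scores of 8.16 and 2.80 in control KD and 29.0 and 43.2 in Paupar KD. These summits lay at 79 and -107 bp from the site's middle in control KD and at -153 and 36 bp in Paupar KD. With a window of 100 bp the site therefore no longer had a summit in every library. The Paupar KD summits stood at the 85.0 and 91.9 percentiles of their own lists, and the control KD ones at the 34.7 and 3.9 percentiles of theirs.

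Both other higher Foxp1 sites had control KD values at or near the lowest of the table, so the size of their change is uncertain. The site in intron 2 of 18 (99276181 to 99276280), 9.65 kb upstream of an inner start whose RefSeq window is shown above, stood at 0.61 in control cells and 5.11 after Paupar KD, with an FDR of 0.00503, by the authors' deposited table. The site in intron 3 of 17 (99081522 to 99081621) was listed at the floor of -0.01 in control cells and at 4.72 after Paupar KD by the authors' deposited table, with an FDR of 0.0151. Each had its only summit in Paupar KD replicate 1, scored 32.2 and 17.1. Of the 3099 adjusted sites of the table with a summit in that library alone, 6.65% were higher. The part of this library in the calls was not tested, because the table has no value per library.

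The strongest Pax6 binding of Foxp1 lay at its outer promoter, in a pair of sites that were 0.79 kb apart. The site at 99522107 to 99522206, 0.441 kb downstream of a transcript start, fell from 7.56 to 6.66 after Paupar KD by the authors' deposited table. This was the lower call, for which the authors' deposited table gave a log2 change of -0.90 and an FDR of 0.0391; 1.41% of adjusted promoter sites were lower. Its one summit was in Paupar KD replicate 2 (score 9.52), and neither control KD library had one although the control KD concentration was the higher. Of the 1153 sites of the table with a control KD concentration of 7 or more, 6.07% had no control KD summit within 250 bp. The neighbouring site (99522901 to 99523000), 0.180 kb upstream of a start, had 6.87 and 6.14 (FDR 0.194) by the authors' deposited table, with a summit in control KD replicate 1 alone that scored 2.25, near the lowest of its list.

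A second group of Foxp1 sites surrounded an inner transcript start over 400 kb further along. The site in intron 3 of 17 at 99101529 to 99101628 was the strongest Foxp1 site outside the outer promoter, with 6.40 and 5.96 (FDR 0.560) by the authors' deposited table. Its summits scored 40.5 and 18.7 in control KD and 23.2 and 44.7 in Paupar KD, each at the 78.1 percentile of its list or higher. The promoter site at 99094753 to 99094852, 1.35 kb downstream of that start, had 5.83 and 5.50 (FDR 0.744) by the authors' deposited table, also with a summit in every library. The promoter site at 99093249 to 99093348 had 4.71 and 3.93 (FDR 0.582) by the authors' deposited table, with a summit in each control KD library and in neither Paupar KD library. The higher site that was listed at the floor in control cells was the next but one to these promoter sites along the gene. The last Foxp1 promoter site (99027226 to 99027325), 0.666 kb inside a short transcript, had 3.64 and 4.18 (FDR 0.789) by the authors' deposited table.

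Beyond the end of Foxp1 lay 2 distal intergenic sites with summits in all 4 libraries. The nearer one (98869927 to 98870026), 652.8 kb from the gene's start, had 5.30 and 6.12 (FDR 0.240) by the authors' deposited table. The farther one (98705141 to 98705240), 817.6 kb from the start, had 4.93 and 6.03 (FDR 0.116) by the authors' deposited table. Neither passed the FDR threshold. Before the gene, the Eif4e3 intron sites had 4.91 and 3.79 (99600264 to 99600363, FDR 0.329) and 3.24 and 4.15 (99610586 to 99610685, FDR 0.667) by the authors' deposited table. They are assigned to Foxp1 by the authors' nearest-gene annotation through an upstream transcript start.

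At an unadjusted p below 0.05 by the authors' deposited table, 7 of the 19 sites in Foxp1's own introns were higher and 0 lower, called ones included. Over all 9653 intron sites, 1226 were higher and 486 lower at that p. Among the 15 uncalled sites in Foxp1's own introns, 3 had an unadjusted p below 0.05 by the authors' deposited table, all with the larger value in Paupar KD. These were the site in intron 2 of 17 at 99224274 to 99224373 (3.04 and 4.82, FDR 0.151) and 2 sites in intron 1 of 18, at 99389538 to 99389637 (0.55 and 3.60, FDR 0.183) and at 99358610 to 99358709 (1.73 and 3.92, FDR 0.280), by the authors' deposited table. The first had a summit in each Paupar KD library and in neither control KD library; the others had a summit in 1 Paupar KD library. A site 0.84 kb from the last, at 99359449 to 99359548, had 4.51 and 4.32 (FDR 0.924) by the authors' deposited table. The largest uncalled difference in the other direction was at 99338000 to 99338099, with 3.19 and 1.97 (FDR 0.652) by the authors' deposited table. The intron sites at 99508795 and 98963638, with mean concentrations of 2.35 and 2.34, lay outside the authors' adjustment. So did the Foxp1 exon site, at 99009897 in exon 7 of 18, with a mean concentration of 2.48. The site at 99508795 had no summit in any library. The remaining 7 sites in Foxp1's own introns had 2.86 to 4.85 in control cells, 3.69 to 5.16 after Paupar KD and FDRs of 0.680 to 0.943 by the authors' deposited table.

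Foxp2, studied in speech, brain and lung development, had its strongest Pax6 binding at the gene's start and 2 weak sites far inside. The promoter site at 14901643 to 14901742, 0.165 kb downstream of a start, had 8.50 against 7.99 after Paupar KD (FDR 0.186) by the authors' deposited table, the highest concentrations of any Foxp site. It stood above 99.6% of all sites in mean signal, with summits scored 24.6 and 17.6 in control KD, 31.9 in Paupar KD replicate 2 and none in Paupar KD replicate 1. The second promoter site (14900863 to 14900962), 0.387 kb upstream, had 6.94 and 6.41 (FDR 0.369) by the authors' deposited table, with a summit in every library.

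The called Foxp2 site (15185526 to 15185625) overlapped the start of an inner transcript 284.2 kb into the gene. It stood at 0.55 in control cells and 4.52 after Paupar KD (FDR 0.0413) by the authors' deposited table, and its only summit was in Paupar KD replicate 1 (score 19.5). The value in control cells lay near the floor of the table, which leaves the size of this change open to doubt too. Over all adjusted promoter sites 1.60% were higher. The exon site (15411716 to 15411815), in exon 15 of 15 of an annotated transcript, had 2.07 and 4.25 (FDR 0.202) by the authors' deposited table, and again its only summit was in Paupar KD replicate 1, scored 9.56.

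**Figure D2:**
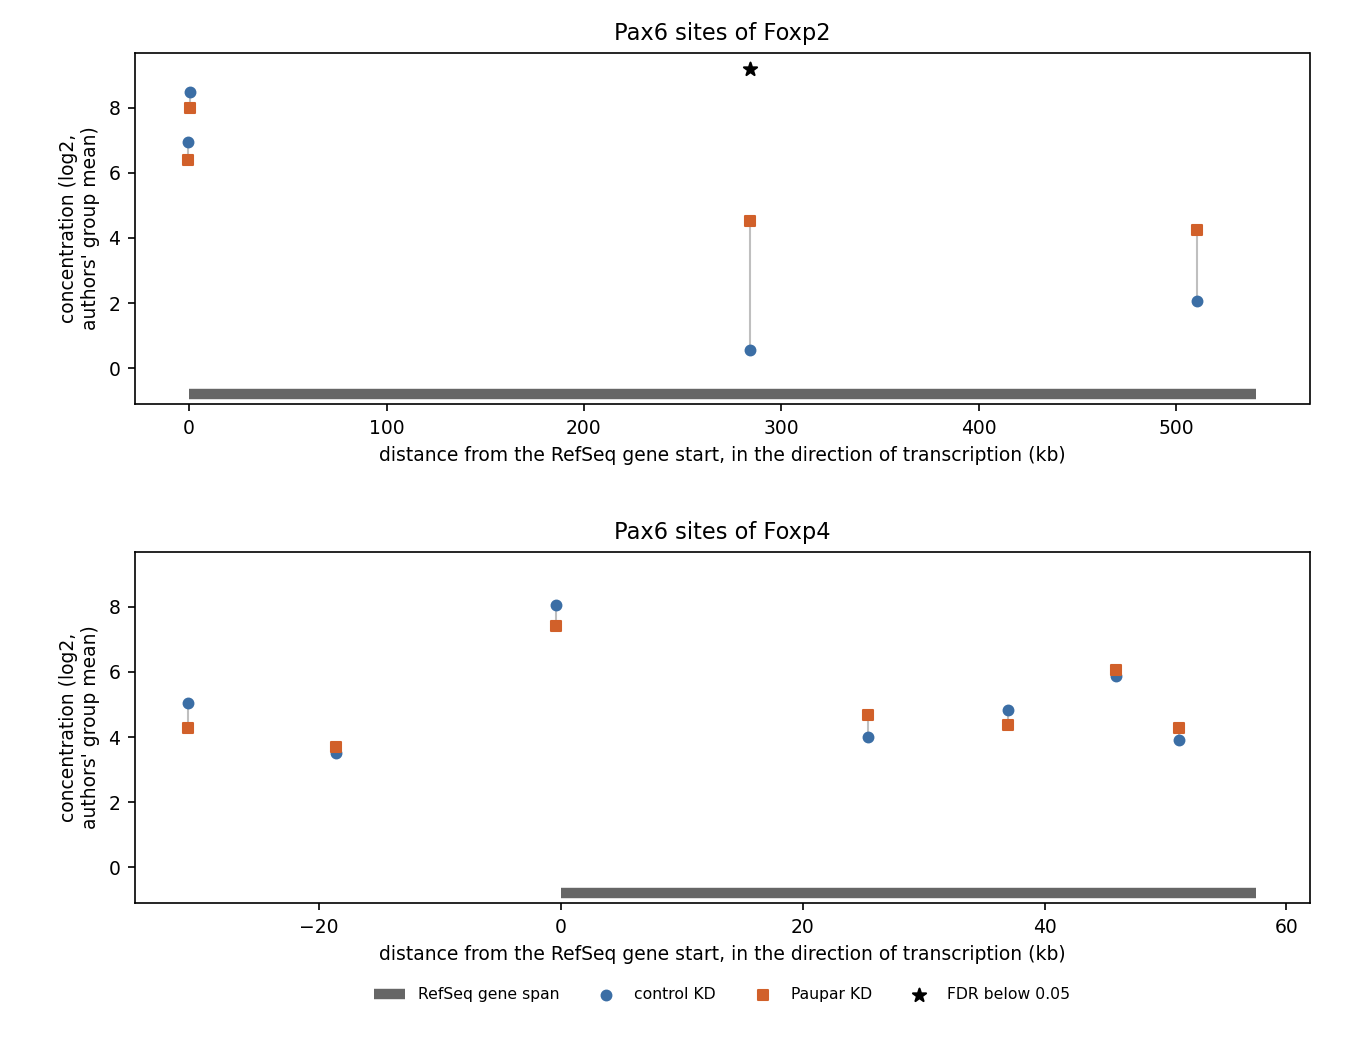
Pax6 concentration (log2, the authors' group mean, y axis) at the 4 Foxp2 sites (upper panel) and the 7 Foxp4 sites (lower panel) against distance from the RefSeq gene start (kb, x axis), with control KD as circles and Paupar KD as squares. At both gene starts the circle is above the square, from 8.50 to 7.99 at Foxp2 and from 8.06 to 7.42 at Foxp4, and the 1 star is at the inner Foxp2 site.

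Foxp4, the shortest gene of the group, had 0 called sites and, at an unadjusted p below 0.05 by the authors' deposited table, 1 site, with the lower value after Paupar KD. It was the outer promoter site (chromosome 17, 47925013 to 47925112), 0.368 kb upstream of the start and just outside the window shown above, with 8.06 against 7.42 after Paupar KD (FDR 0.115) by the authors' deposited table. Summits stood there in every library, with scores of 50.0 and 21.7 in control KD and 9.37 and 52.9 in Paupar KD. Within their lists these stood at the 91.5, 82.3, 45.0 and 93.9 percentiles. The 2 inner promoter sites had 4.83 and 4.38 (47887583 to 47887682, FDR 0.760) and 5.87 and 6.05 (47878666 to 47878765, FDR 0.865) by the authors' deposited table, each with a summit in 1 Paupar KD library. The other 4 Foxp4 sites had control KD concentrations between 3.50 and 5.05 and FDRs between 0.531 and 0.943 by the authors' deposited table. The intergenic pair of these upstream of the gene had a summit in control KD replicate 1 alone, and the intron pair had summits in Paupar KD libraries only.

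At the start of each of the 3 genes the Pax6 site with the highest concentration had a lower value after Paupar KD, with log2 changes of -0.90 at Foxp1, -0.51 at Foxp2 and -0.64 at Foxp4 by the authors' deposited table. The fall passed the FDR threshold at Foxp1, and the values at the other genes did not. Of the 13141 sites of the table with a mean concentration of at least 4.42, its median, 8792 also had a change below 0. A lower value was thus the more common direction at strong sites of any gene. No share was taken for sites as strong as these 3. Over all Foxp promoter sites, inner starts included, 8 of 11 had a log2 change below 0, with a median of -0.51. Over all 7216 promoter sites, 4637 had a change below 0 and the median was -0.23, so this direction was the more common one at promoters of any gene. Of the 23 Foxp intron sites, 18 had a change above 0, with a median of 0.68; over all 9653 intron sites 54.0% did and the median was 0.10. Over all 40 Foxp sites the median log2 change was 0.40, and over all sites it was -0.03. Sites of 1 gene share their source, so these medians are descriptions.

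The log2 change was lower at sites of higher signal, at the Foxp sites and in the whole table. Of the 22 Foxp sites with a mean concentration below the table's median of 4.42, 19 had a change above 0 (86.4%, against 64.5% of all such sites), with a median of 0.81 against 0.40. Of the 18 sites at or above it, 7 had a change above 0 (38.9%, against 32.5%), with a median of -0.39 against -0.26. The 8 Foxp sites with a summit in all 4 libraries had a median of -0.01, and the 5250 such sites of the table -0.29. At an unadjusted p below 0.05 by the authors' deposited table, 11 of 40 Foxp sites were higher and 4 lower, where 10.7% and 6.67% of all sites were. How the authors normalized the libraries is not given here, and its part in this relation was not tested.

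**Figure D3:**
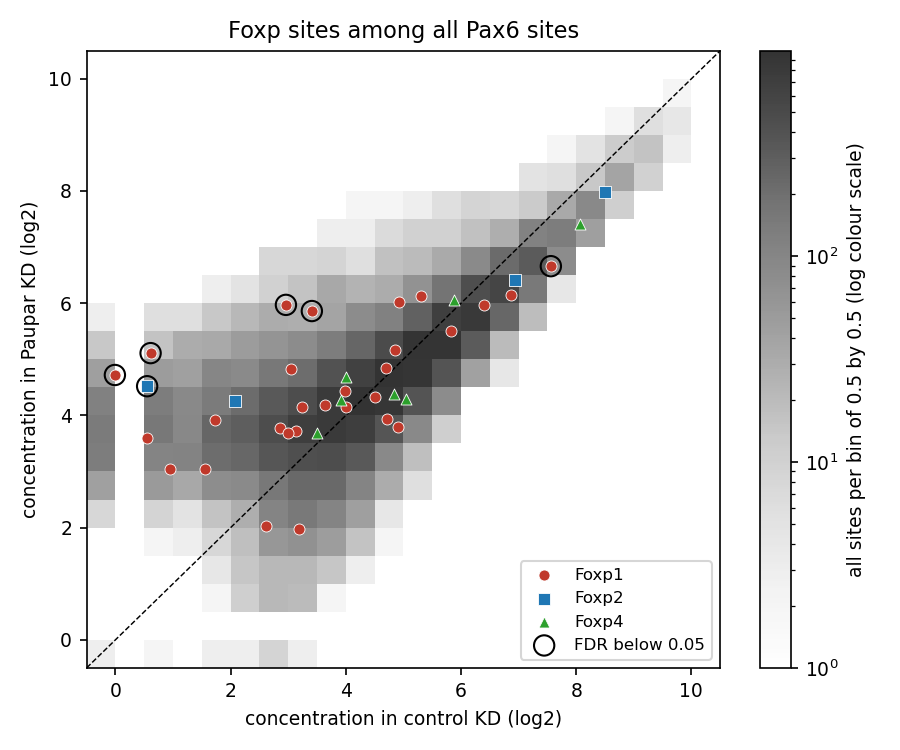
Concentration in Paupar KD (log2, y axis) against control KD (log2, x axis) for the 40 Foxp sites, over the number of all sites per bin in grey (log colour scale); the dashed line marks equal values and rings mark the 6 sites with an FDR below 0.05. The 5 ringed sites above the line have control KD values from -0.01 to 3.41, and the 1 below it is the Foxp1 outer promoter site at 7.56.

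Summits gave the only values per library. Control KD replicates 1 and 2 had a summit at 18 and 14 Foxp sites, and Paupar KD replicates 1 and 2 at 20 and 22, means of 16.0 ± 2.83 (SD, n = 2) and 21.0 ± 1.41 (SD, n = 2). Both Paupar KD libraries were above both control KD libraries, and the difference of 5.0 sites gave a two-sided exact permutation p = 0.33, which is the lowest a design of 4 libraries can reach. The lists themselves differed in length, with 14311 and 9983 summits in control KD and 15611 and 17942 in Paupar KD. Shares of sites with a summit were 45.0%, 35.0%, 50.0% and 55.0% for the Foxp genes in that order of libraries, and 50.0%, 34.9%, 54.4% and 63.1% for all sites. With lists of equal length (9983 summits) the Foxp counts were 13, 14, 17 and 14, and the groups overlapped. Of the 40 sites, 8 had a summit in every library, 2 in 3 libraries, 7 in 2, 22 in 1 and 1 in none. Over all sites 20% had a summit in every library and 43.9% in 1, where the Foxp shares were 20% and 55.0%. Those in 1 library divided into 8 in Paupar KD replicate 1, 8 in Paupar KD replicate 2, 4 in control KD replicate 1 and 2 in control KD replicate 2. In that order these were 20%, 20%, 10% and 5.0% of the Foxp sites, and over all sites the shares were 13.0%, 16.5%, 10% and 4.33%.

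**Figure D4:**
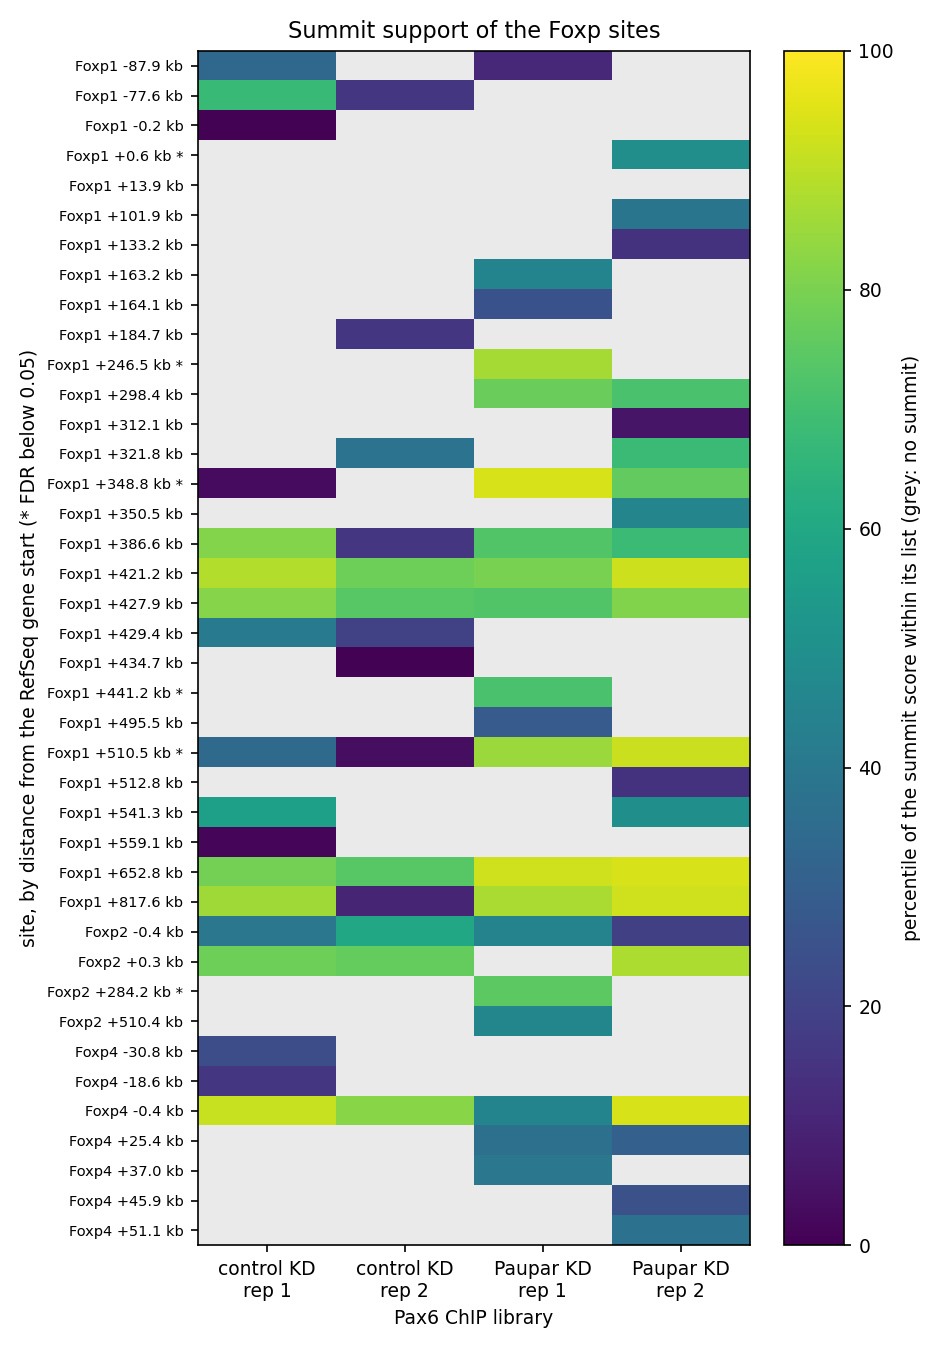
Percentile of the summit score within its own list (colour, 0 to 100; grey where no summit lay within 250 bp) for the 40 Foxp sites (rows, by gene and distance from the gene start in kb) in the 4 Pax6 ChIP libraries (columns); colours compare summits within a column only. The 8 rows coloured in all 4 columns are the sites with a summit in every library, and 3 of the 6 starred rows are coloured in Paupar KD replicate 1 alone.

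Called sites made up 3.3% of the adjusted sites at other forkhead genes, near the 4.27% of all sites. Sites were assigned to 24 of 41 further forkhead genes, 94 sites in all, of which 1 was higher and 2 lower by the authors' deposited table. The higher site was at Foxc1 (0.61 and 4.48, FDR 0.0218), and the lower ones were at Foxo6 (6.73 and 5.68, FDR 0.0480) and Foxn2 (8.49 and 7.83, FDR 0.0472), by the authors' deposited table. Foxa2, an endoderm pioneer factor gene, had the most of these sites, 16. The share of called sites was not tested between these genes and the Foxp genes.

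Genes for known Foxp partners and for growth of alpha cells were counted as well. Of 14 genes of the corepressor partners, that is the CtBP proteins and the nucleosome remodelling and deacetylase (NuRD) complex, 7 had sites, 24 in all. Of these sites, 0 were higher and 1 was lower, at the promoter of the NuRD gene Mbd3, by the authors' deposited table; at an unadjusted p below 0.05 they numbered 0 and 4. The called share of 4.17% was near the 4.27% of all sites, and at the unadjusted p 10.7% of all sites were higher and 6.67% lower. Of 25 cell cycle and alpha-cell growth genes, 12 had sites, 28 in all, with 0 called at an FDR below 0.05 and 1 higher and 1 lower at an unadjusted p below 0.05 by the authors' deposited table, against the same shares of all sites. Cdk1, which drives entry into mitosis, had 5 of these sites and Slc38a5, an amino acid transporter gene needed for alpha-cell growth in mice with blocked glucagon signalling, had 4.

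Among the genes most like Foxp1 by number of sites were Cacna1c and Rybp, with 29 each, and Arid1b and Celf4, with 30 each. Cacna1c, a calcium channel gene of 610.1 kb, had 0 called sites and median concentrations of 3.55 and 3.40, where Foxp1 had 3.41 and 4.32. Rybp, a gene of 58.8 kb, had 0 sites inside its span, where Foxp1 had 24. Of the sites assigned to these genes, Rybp had 1 higher and 2 lower, Celf4 1 higher and Arid1b none. Median log2 changes in these 4 genes ran from -0.31 to -0.11, and that of Foxp1 was 0.59. These genes were picked by their number of sites, and their difference from Foxp1 was not tested.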

How the data were processed

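Pax6 ChIP-seq in alphaTC1 cells was used as deposited. The submitters' processing notes name Bowtie2, MACS2, DiffBind and ChIPseeker, with no versions, and the build mm10. How DiffBind tested and normalized the libraries, and what the inputs were used for, is not stated in any label or header. The authors' table gives concentrations and a fold for sites of 100 bp, read here as log2 values, with p-values and FDRs of the authors' own test and their −log10; it has group values and none per library. The authors' fold is control KD minus Paupar KD and its sign was turned here; at 0 sites was it more than 0.01 away from the concentrations' difference. No test per site was run here. The deposited FDR was 1 with a p-value below 0.99 at 1010 sites with mean concentrations up to 2.62, which were taken as outside the authors' adjustment.

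Each ChIP library has a list of peak summits with a deposited score, read as −log10 of a q-value from its lowest value of 2.00 to 2.01; the authors called summits per library. Scores were ranked within a list only. The peak names of control KD replicate 2 carry another number than its title, and the list was taken for the library it was deposited with. A summit counted for a site when it lay within 250 bp of its middle. Read depth is unknown, and no counting interval is given. The number of Foxp sites with a summit was compared by a two-sided exact permutation test over libraries. Alternatives were other FDR, summit window and score thresholds, other ways to assign sites, and leaving out each library. Matching and motif searching were tested on simulated data. Gene spans and promoter windows are RefSeq's on GRCm38.p6, the assembly of mm10. Python 3.11.15, pandas 2.3.3 and numpy 2.4.6 were used.

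Full values were given, by rule, for the strongest site of each gene, the site with the largest change, every promoter site and every site with p or FDR below 0.05; further sites were named to account for all, some chosen after their values were seen. Genes like Foxp1 were the nearest in number of sites, and 1 that this rule names is not reported here. The members, lists and tests were chosen with earlier results of these data known.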

Additional observations from a re-analysis of the deposited data

How the results depend on the processing

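The 6 called Foxp sites numbered 3 at an FDR below 0.01, 6 at an FDR below 0.10, 15 at an unadjusted p below 0.05 and 5 without the site at the floor. Without sites whose only summit was in Paupar KD replicate 1 they numbered 3, and with summits in at least 2 libraries 2; both alternatives were chosen after seeing the data. Of all adjusted sites 4.27% were called at an FDR below 0.05. At the unadjusted p, 10.7% of all sites were higher and 6.67% lower. Shares of all sites under the other settings are not given here, so those Foxp counts have no background to be set against. The 8 sites with a summit in every library numbered 7 and 8 with windows of 100 and 500 bp, 4 with scores of at least 5, and 8 to 9 without 1 library. The difference of 5.0 sites with a summit stayed above 0 under all alternatives run: 3.0 and 5.5 with the other windows, 7.5 with scores of at least 5, 2.0 with equal lists, and 3.0 to 7.0 without 1 library. With the 100 bp window the counts were 18 and 12 in control KD and 17 and 19 in Paupar KD. The groups thus overlapped there (exact permutation p = 0.67), as with equal lists. With the replicate number as a block the difference was 5.0 (exact permutation p = 0.5, the smallest possible). For summit presence, the deviation of replicate 1 from its group mean was compared between control KD and Paupar KD. These deviations had a correlation of -0.006 over 26244 sites. The 11511 sites with a summit in 1 library and the 5250 with a summit in every library have a deviation of 0 in at least 1 group. Such sites pull the correlation towards 0, so it cannot settle whether the replicate numbers are pairs. The numbers were not taken as pairs in the main comparison. The peak names of control KD replicate 2 carry another number than its title, so its number is uncertain. Counted by place, as sites of any symbol within the extent of the annotated Foxp transcripts, the 40 sites became 34, and 25 of the 40 had a mean concentration of at least 4. The median log2 change of 0.40 was 0.35 without the floor, 0.68 in introns and 0.15 at mean concentrations of at least 4; the cause was not tested. Calls could not be refitted with a library left out, since the table has group values, and unknown depth leaves weak sites without an error.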

Other observations

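Some summits inside the Foxp1 gene lay at no site of the authors' table. One position just upstream of the inner start that the second group of Foxp1 sites surrounds had a summit in 3 libraries: control KD replicate 1 (chromosome 6, 99096345, score 13.3), control KD replicate 2 (99096372, score 4.58) and Paupar KD replicate 1 (99096267, score 9.56). The nearest site of the table was 1465 to 1570 bp away, so no concentration is known for it. Single summits at 99171883 in Paupar KD replicate 1 (score 5.86), 400 bp from a site, and at 99509420 in Paupar KD replicate 2 (score 4.39), 576 bp from a site, also had no match within 250 bp. At Foxp2 and Foxp4 every summit within the extent of the gene and its sites had a match.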
